A study of Mus musculus with 15 samples.

Results

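The neuregulins Nrg1 and Nrg3 and the neuregulin receptor gene Erbb4 were followed through the H3 nucleosome tables and the ACF1 segment lists of the mouse nucleus accumbens, part of the ventral striatum that serves reward and motivation. The genes were chosen by name, 3 in all, against 7814 genes named in any H3 table. Of the 3, Nrg3 and Erbb4 were named in the H3 tables, with 17 and 129 listed occupancy positions, and no row used here carried the name Nrg1. The groups were susceptible, resilient and control mice. Susceptible mice were C57BL/6 mice that avoided others after 10 days of defeat by CD1 mice, and resilient mice were defeated alike, without avoidance. For control mice no days of defeat are given. The sampling time was 48 hours after the last defeat, and it is given for control mice as well. Per the labels, punches from 10 mice were pooled for a replicate and triplicates were made, but GEO holds 1 sample for each group and target, and a table gives a single result for a pair of groups. There was therefore no spread between replicates, no test between groups of animals, and the sequencing depth was unknown. The tissue was a mixed punch, so a change within a cell type and a change in the share of that type cannot be told apart.

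Neuregulins are growth factors with an EGF-like domain that are made as membrane-bound precursors and cut at the cell surface. They bind ErbB receptor tyrosine kinases. Nrg3 binds ErbB4, whereas Nrg1 binds ErbB3 and ErbB4. In the forebrain ErbB4 is found mainly in inhibitory interneurons, where it acts in the assembly and strength of synapses, and its intracellular part can be released and move to the nucleus. Histone H3 marks nucleosomes, and ACF1, the product of Baz1a, is a subunit of a remodelling complex that spaces and slides them.

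The H3 tables held positions that the authors had selected, marked Up or Down, with no size, read count or p-value. Up was taken as higher in the group named first. This is not written in the files; if it were the other way about, each direction given here would turn round. Over the tables, 16273 to 49408 positions were listed. In susceptible against control, chromosome 1 held 66.4% of them, 32791 positions, and 98.2% of those were Down. Resilient against control and resilient against susceptible had 8.02% and 8.05% of their positions on chromosome 1. Erbb4 lies on that chromosome, so its counts are read from the tables without this excess, and its susceptible against control count is set beside chromosome 1 alone. Each pair of tables shares a group, so the tables are not independent of each other.

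Nrg3 spans 1104.2 kb on the minus strand of chromosome 14, from 39182136 to 40286376 of mm9 (transcript NM_001190187). It ranked 27 in length among the 7814 named genes. All of its listed positions were annotated as gene body in the authors' deposited tables. Whether they lay in exons or introns was not analysed here.

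In susceptible against control, Nrg3 held 3 Up and 5 Down positions, so nucleosome occupancy was listed as changed in both directions within the same gene. Outside chromosome 1, 40.4% of all positions of that table were Up, and 39.5% of those in genes of at least 500 kb, Nrg3 among them. The authors' deposited table placed the Up positions at 39188212, 39528352 and 40086592. It placed the Down positions at 39218102, 39444982, 39461162, 39536592 and 39927052. Up and Down positions were thus interspersed along the gene, and the Up position 39528352 and the Down position 39536592 lay 8.24 kb apart, which was the smallest gap between neighbours in that table.

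In resilient against control, Nrg3 held 4 Up and 3 Down positions, where 38.3% of the positions outside chromosome 1 were Up. In genes of at least 500 kb outside chromosome 1, Nrg3 among them, 46.0% were Up. The Up positions stood at 39188242, 39190002, 39545572 and 40080192 in the authors' deposited table. The Down positions stood at 39382142, 39461162 and 39684932. Both Up positions nearest the 3′ end lay 1.76 kb apart, 6.1 and 7.9 kb inside the gene. No test of the difference between 4 Up of 7 and the whole table was made, since positions of 1 gene are not replicates.

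In resilient against susceptible, Nrg3 held 2 positions, both Down, at 39987672 and 40086592 of the authors' deposited table. Of all positions outside chromosome 1, 51.2% were Down there, while in genes of at least 500 kb, Nrg3 among them, 52.1% were Up. Within 1 Mb of the gene on each side the same table listed 9 Up and 2 Down positions. In the same flanks there were 9 Up and 11 Down positions in susceptible against control, and 8 Up and 9 Down in resilient against control.

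**Figure D1:**
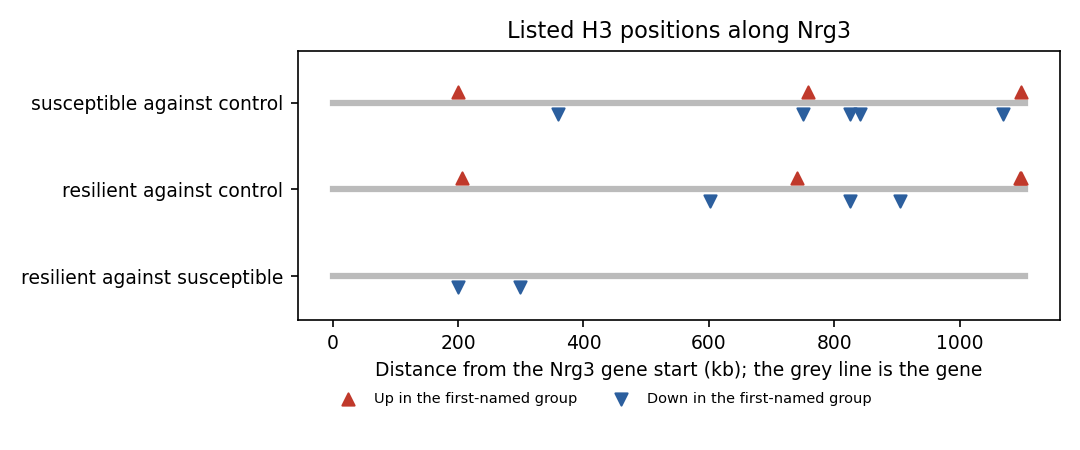
Listed H3 occupancy positions along Nrg3, by distance from the gene start in kb on the horizontal axis, with a row for each comparison. Triangles pointing up are positions higher in the group named first, and those pointing down are lower; 12 of the 17 lie beyond the midpoint of the gene, and the nearest to the start is 199.8 kb away.

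The 17 listings of Nrg3 fell at 15 coordinates, since 2 coordinates stood in more than 1 table. The share of such repeats over all genes is not given here. Position 40086592, 199.8 kb from the start, was Up in susceptible against control and was listed again, as Down, in resilient against susceptible, so it was listed as higher in susceptible mice on both occasions. It was not listed in resilient against control, whose nearest Nrg3 position, 40080192, was Up and 6400 bp away. Position 39461162, 825.2 kb from the start, was Down in susceptible against control and in resilient against control, so it was listed as lower in both defeated groups. Near the 3′ end, the Up positions 39188212 of susceptible against control and 39188242 of resilient against control were 30 bp apart, less than the length of DNA in a nucleosome. The susceptible library is common to the tables that list 40086592, and the control library to those that list 39461162 and the 3′ end, so neither repeat is separate evidence.

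No position was listed in the first 199.8 kb of Nrg3, and most listings over all tables lay beyond its midpoint. The nearest position to the start was 199.8 kb away in susceptible against control, 206.2 kb in resilient against control and 199.8 kb in resilient against susceptible. The distance of 199.8 kb is that of the same coordinate, 40086592, in both tables. The largest gaps between neighbours inside the gene were 390, 395 and 98.9 kb in the same order. The empty stretch was thus shorter than the largest gap in both comparisons with control mice, and the same distance in other long genes is not given here. Beyond the midpoint of the gene lay 6 of 8, 6 of 7 and 0 of 2 positions in the same order. Over all tables that made 70.6% of the Nrg3 listings, against 51.5% of 1392 gene-body listings in the other genes of at least 500 kb outside chromosome 1. This split was chosen after the positions were seen and was not tested.

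Per length, Nrg3 had 7.24 listed positions per Mb in susceptible against control, 6.34 in resilient against control, but 1.81 in resilient against susceptible. Long genes had few positions per Mb in general: among the 149 genes of at least 500 kb outside chromosome 1, the medians were 2.66, 2.91 and 2.76 per Mb. Nrg3 lay above 118 of the other 148 in susceptible against control and above 116 in resilient against control. It lay above 55 of the 148 in resilient against susceptible. Holding a position at all was usual for such genes, at 86.6%, 88.6% and 88.6% of them, so the presence of positions in Nrg3 does not set it apart. Over the whole genome outside chromosome 1 the densities were 6.76, 6.56 and 6.09 per Mb in the same order. The flanks of 1 Mb on each side of Nrg3 held 10.0, 8.5 and 5.5 per Mb. The density of Nrg3 was thus below that of its own flanks in each comparison.

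Erbb4 spans 1068.1 kb on the minus strand of chromosome 1, from 68086539 to 69154633 of mm9 (transcript NM_010154). All its positions were annotated as gene body. In resilient against control, Erbb4 held 1 Up and 2 Down positions, and 62.3% of the positions of that table on chromosome 1 were Down. The authors' deposited table placed the Up position at 68326512 and the Down positions at 68211682 and 68354272. All of these lay beyond the midpoint of the gene, 800.4 to 943.0 kb from its start.

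In resilient against susceptible, Erbb4 held 3 Down positions and no Up position, and 50.2% of the positions on chromosome 1 were Down. They stood at 68567422, 68624662 and 68765122 in the authors' deposited table. These lay 389.5 to 587.2 kb from the start, in the middle of the gene. None coincided with a position of resilient against control, and none of the 9 Nrg3 listings of these comparisons did so either. The share of such repeats over all positions is not given here.

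The density of Erbb4 was 2.81 positions per Mb in both tables of resilient mice. It lay above 5 and above 4 of the other 17 genes of at least 500 kb on chromosome 1, whose medians were 4.47 and 4.27 per Mb. The flanks of 1 Mb on each side held 8.0 positions per Mb when resilient mice were set against control, and 6.5 when set against susceptible mice. Set against the 149 genes of at least 500 kb on the other chromosomes, Erbb4 lay above 72 of them in resilient against control and above 75 when set against susceptible mice, beside medians of 2.91 and 2.76 per Mb. Its density was thus near the middle of long genes in general, and below that of its own flanks.

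In susceptible against control, Erbb4 held 1 Up and 122 Down positions. On chromosome 1 as a whole 98.2% of that table was Down, so the Down positions follow the chromosome. With 115 positions per Mb, Erbb4 lay below the 166 per Mb of all chromosome 1 and the 192 per Mb of its own flanks. It lay above 80 of the other 174 genes of at least 100 kb on that chromosome, whose median was 122 per Mb. The positions were spread along the gene, with 7 to 16 in each of 10 equal stretches of its length and a median gap of 6.61 kb. The nearest position lay 3.8 kb from the start, closer than in the other comparisons. With 123 positions here and 3 in each of the others, this cannot be told apart from the larger count.

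The Up position of Erbb4 in susceptible against control, at 68567422 of the authors' deposited table, was also Down in resilient against susceptible. It was thus listed as higher in susceptible mice in both tables, as position 40086592 of Nrg3 was. Both tables share the susceptible library, so the repeat is not separate evidence. At 68211682 the authors' deposited tables listed Down in susceptible against control and in resilient against control. At 68765122 Down was listed by the authors' deposited tables in resilient against susceptible as well as susceptible against control. At these last 2 coordinates the susceptible against control listing falls within the excess of Down on chromosome 1, so they give no ranking of the groups. The other listing of each comes from a comparison without that excess.

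Shifts of nucleosomes, listed in tables of their own, were found in Erbb4 and not in Nrg3. Erbb4 had 4, all in susceptible against control, where 7.31% of the named genes held a shift. The values in the authors' deposited table were -70 at 68235872, 60 at 68237602, -60 at 68436352 and 70 at 68809112, taken as bp. Chromosome 1 held 3363 of the 3942 shifts of that table, so their number in Erbb4 cannot be told apart from that excess. In the comparisons of resilient with control and with susceptible mice neither gene held a shift, where 1.96% and 1.63% of the named genes did.

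**Figure D2:**
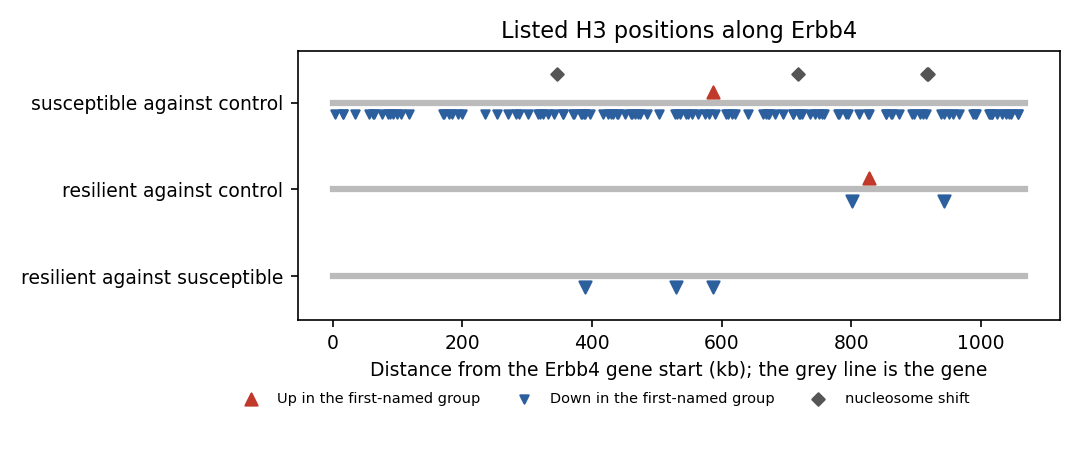
Listed H3 occupancy positions (triangles) and nucleosome shifts (diamonds) along Erbb4, by distance from the gene start in kb, with a row for each comparison. Susceptible against control shows 122 Down positions spread over the whole gene and 1 Up position, whereas the other rows hold 3 positions each.

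**Figure D3:**
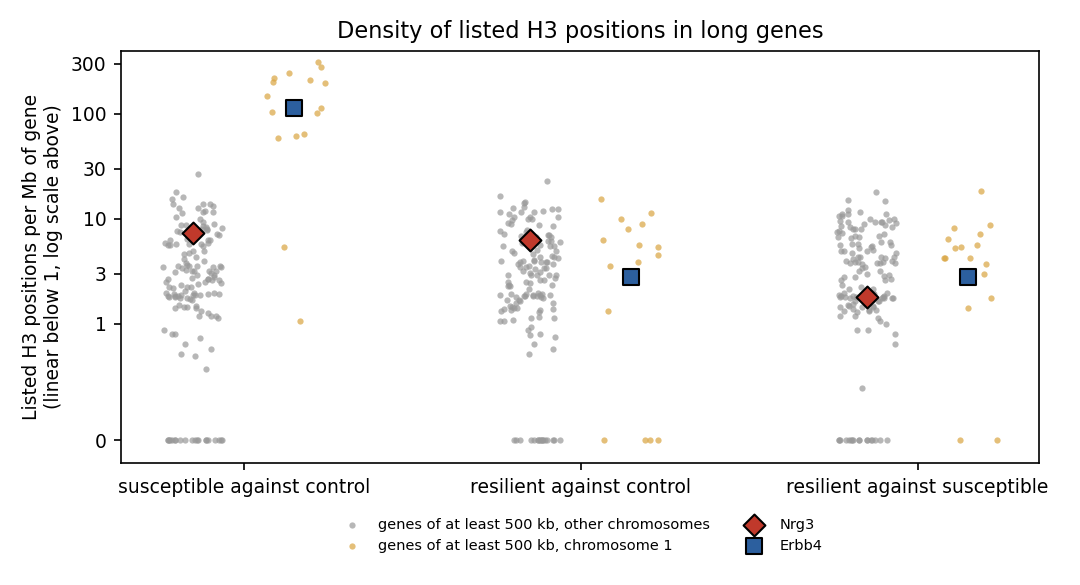
Listed H3 positions per Mb of gene (vertical axis, linear below 1 and log above) in each comparison for genes of at least 500 kb, each point a gene. Nrg3 lies above most long genes in susceptible against control (7.24) and resilient against control (6.34) but not in resilient against susceptible (1.81), and Erbb4 at 115 in susceptible against control lies within the cloud of chromosome 1. The flanks of Nrg3, not drawn, held 10.0, 8.5 and 5.5 positions per Mb in these comparisons.

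Nrg1 had no named row in the H3 tables, so the files give it no bounds and no value. In the gene order of the RefSeq annotation of a later build (GRCm38.p6) it lies on chromosome 8 between Fut10 and Wrn, with Gm3985 as the other protein-coding gene between them. The tables bound those neighbours on mm9, which leaves an interval of 1996.6 kb from 32348266 to 34344844. That interval held 5 Up and 10 Down positions in susceptible against control, 1 Up and 7 Down in resilient against control, and 2 Up and 4 Down in resilient against susceptible. The authors annotated all 29 as gene desert or other intergenic, with no gene name. The density was 7.51 per Mb in susceptible against control, beside 7.58 on chromosome 8 as a whole. It was 4.01 per Mb in resilient against control, beside 7.34, and 3.01 per Mb in resilient against susceptible, beside 6.47. No shift was listed there. These values belong to the interval, which is wider than Nrg1, and were not assigned to the gene. Since Nrg1 lies within this interval, its missing name does not show that it held no listed position.

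No ACF1 segment lay over Nrg3 or Erbb4 in the susceptible, resilient or control list. A segment is a run of the state E2, the rarer of 2 states in the authors' deposited files, and nothing there says that it stands for ACF1 binding. Segments were rare over genes: 2.48% of the named genes held one in susceptible mice, 1.47% in resilient and 1.89% in control mice. Among genes of at least 500 kb the shares were 9.58%, 4.79% and 7.78%, so having none was the usual state of a long gene. The nearest segment to Nrg3 was in the susceptible list, at 39081801 to 39082400 of chromosome 14, 99.7 kb beyond its 3′ end and 600 bp wide. The nearest to Nrg3 in the resilient and control lists were 3270 and 3410 kb from the gene. The susceptible list is longer, with 1133 segments against 716 in the resilient and 749 in the control list, and 50 against 22 and 25 on chromosome 14, so a nearer segment cannot be told apart from a longer list. For Erbb4 the nearest segments were 2690 kb away in the susceptible list, 1870 kb in the resilient list and 3590 kb in the control list. No H3 position of either gene was within 10 kb of a segment. The interval between Fut10 and Wrn held no segment in any list.

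**Figure D4:**
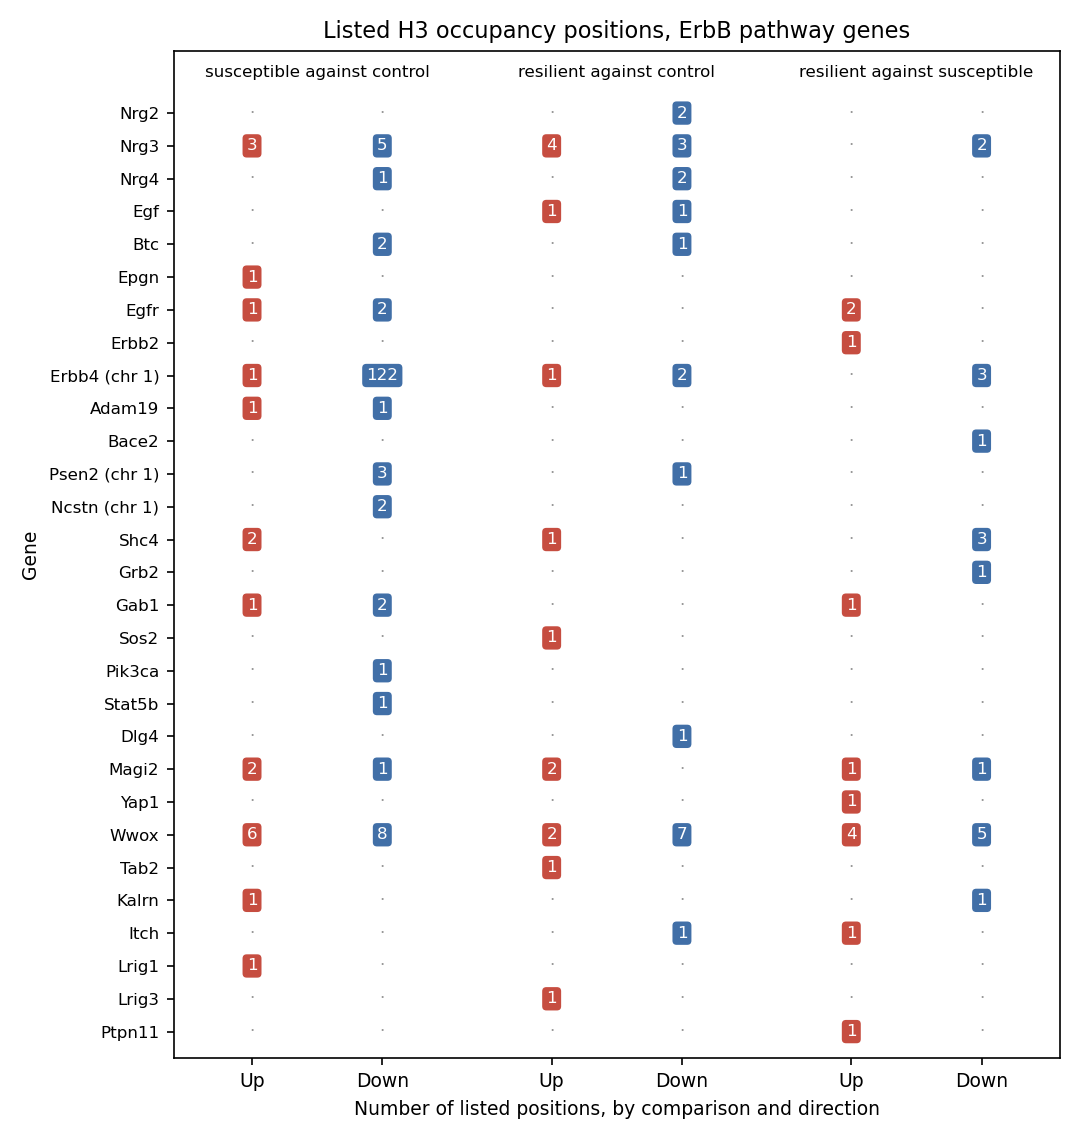
Numbers of listed H3 occupancy positions for 29 of the 31 ErbB pathway genes named in any H3 table, by comparison and direction, with a dot where none was listed. Apart from the chromosome 1 genes in susceptible against control, Nrg3 and Wwox hold the most positions.

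Few other genes of the pathway held more than a few positions. Of 62 genes listed for the ErbB pathway, 31 were named in any H3 table. Of those 31, 19 held a position in susceptible against control, 12 of them Up and 14 Down with 7 in both directions. In resilient against control 16 held one, 10 Up and 10 Down, and in resilient against susceptible 14 held one, 8 Up and 8 Down. Over all named genes 60.2%, 49% and 45.5% held a position in these tables, where the pathway had 61.3%, 51.6% and 45.2%, so the pathway was near the background when directions were not parted. Without the 4 pathway genes on chromosome 1, 15 of 27 held a position in susceptible against control (55.6%), against 53.9% of all named genes off that chromosome. In susceptible against control 38.7% of the pathway genes held an Up position and 45.2% a Down position, against 23.1% and 46.2% of all named genes. In resilient against control 32.3% held an Up and 32.3% a Down position, against 22.1% and 34.7%. In resilient against susceptible 25.8% held an Up and 25.8% a Down position, against 26.5% and 26.2%. The share with an Up position was thus above the background in the comparisons with control mice. These shares by direction include the genes of chromosome 1, gene length was not matched, and the difference was not tested.

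Among the ligands, Nrg4, a neuregulin of fat and other tissues that binds ErbB4, held 1 Down position in susceptible against control, with 2 more Down in resilient against control. Nrg2, another neuronal neuregulin, held 2 Down positions in resilient against control. Btc, which encodes betacellulin, a ligand of EGFR and ErbB4, held 2 Down and 1 Down in those tables, with a shift of -80 listed in resilient against control by the authors' deposited table. Egf held 1 Up and 1 Down in resilient against control, and Epgn, another EGF receptor ligand, 1 Up in susceptible against control. Nrg3 was the ligand gene with positions in resilient against susceptible.

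Among the receptors, Egfr held 1 Up and 2 Down positions in susceptible against control and 2 Up in resilient against susceptible. Erbb2, the co-receptor that binds no ligand itself, held 1 Up in resilient against susceptible. Erbb4 held 3 Down in that table, where 26.5% of all named genes held an Up position and 26.2% a Down position. Of the proteases, Adam19, which cuts neuregulin precursors, held 1 Up and 1 Down in susceptible against control. Psen2, a subunit of the gamma-secretase that releases the intracellular part of ErbB4, held 3 Down in susceptible against control, with 1 Down in resilient against control, Ncstn 2 Down and a shift of -60 in susceptible against control by the authors' deposited table, and Bace2 1 Down in resilient against susceptible. Psen2 and Ncstn lie on chromosome 1.

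Of the adaptors, scaffolds and effectors, Wwox, whose product binds the intracellular part of ErbB4, held the most positions outside chromosome 1. It had 6 Up and 8 Down in susceptible against control, 2 Up and 7 Down in resilient against control, and 4 Up and 5 Down in resilient against susceptible. Shc4, a phosphotyrosine adaptor gene, held 2 Up in susceptible against control, 1 Up in resilient against control, but 3 Down in resilient against susceptible. The scaffold gene Magi2 held 2 Up and 1 Down, 2 Up, and 1 Up and 1 Down in the same order, and the docking protein gene Gab1 held 1 Up and 2 Down in susceptible against control and 1 Up in resilient against susceptible. Kalrn, a guanine nucleotide exchange factor gene, held 1 Up in susceptible against control, and in resilient against susceptible 1 Down. Single positions stood at Grb2 (Down) and Yap1 (Up) in resilient against susceptible, at Sos2 and Tab2 (Up) and Dlg4 (Down) in resilient against control, and at Pik3ca and Stat5b (Down) in susceptible against control. Sos2 was the pathway gene with an ACF1 segment, 1 in each list. Among turnover genes and inhibitors, Itch held 1 Down in resilient against control but 1 Up in resilient against susceptible, Lrig1 1 Up in susceptible against control, Lrig3 1 Up in resilient against control and Ptpn11 1 Up in resilient against susceptible.

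The genes most like Nrg3 in their numbers of Up and Down positions over the 3 tables were Ugt1a1, Hs6st3 and Egfem1. They differed from it by 5, 6 and 6 positions in all, and 8 genes tied at 6. Ugt1a1 holds its 16 positions in 8.0 kb and lies on chromosome 1, so it is like Nrg3 in number and not in density. For Erbb4, over the 2 tables without the excess, Galnt14 had the same numbers, with 1 Up and 2 Down in resilient against control, then 3 Down in resilient against susceptible. Sulf1 and Col13a1 differed by 1 position, as did 6 genes in all. Galnt14, Sulf1 and Col13a1 span 216.7, 141.8 and 140.6 kb, against 1068.1 kb for Erbb4, so they too are alike in number and not in density.

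Cell type markers could not be used to check the tissue, since the tables give no level. Of 38 marker genes 13 were named in any table, among them Drd2, Tac1, Foxp1 and Rgs9 of medium spiny neurons, the main cell type of this region, each with 1 position in resilient against control, 3 Up and 1 Down. None of these 4 held a position in susceptible against control, and Drd2 held 1 Up in resilient against susceptible. Of all 13 named markers, 5 held a position in susceptible against control (38.5%), 10 in resilient against control (76.9%) but 7 in resilient against susceptible (53.8%), against 60.2%, 49% and 45.5% of all named genes. Of the interneuron markers, the cells in which Erbb4 is known, Kit was named, with 2 Down positions in susceptible against control. Of the other types, 3 endothelial, 2 cortical excitatory, 2 microglial, 1 astrocyte and 0 oligodendrocyte markers were named. The part of cell type composition in the Nrg3 and Erbb4 listings was not tested.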

How the data were processed

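The labels describe ChIP-seq of ACF1 from sheared chromatin and H3 ChIP-seq from chromatin digested with micrococcal nuclease. The submitters' processing notes name CASAVA 1.8.2 and build mm9; the caller behind segments and positions is not given in the sources used here. The 3 deposited ACF1 files cut the genome into E1 and E2 on a grid of 200 bp and give no score. The 6 deposited H3 tables hold positions selected by the authors; the shift score is signed and was taken as bp. Of 15 samples, 6 had files; SNF2H and input libraries were not analysed here.

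Positions were assigned by the gene name in the table, and segments by an overlap of at least 1 bp with the gene bounds. A gene's length was that of its most often listed transcript. Positions are 1-based; gene bounds are as the tables give them. No test was made, since no replicate values exist; counting was tested on simulated positions. Named genes were the members, pathway genes with a position, shift or segment, and the 3 nearest genes by summed difference in counts. Some pathway genes enter the counts and are not reported here by name. The members and lists were chosen with earlier results of these data known. Computation used pandas 2.3.3 with numpy 2.4.6 under Python 3.11.15, and figures used matplotlib 3.10.9.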

Additional observations from a re-analysis of the deposited data

How the results depend on the processing

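Several alternatives could not change the counts of Nrg3 and Erbb4: all their positions are gene body, no Nrg3 positions lie within 1000 bp of each other in a table, and stricter segment rules cannot alter a count of 0. Of those that could, joining positions within 1000 bp gave 114 Down loci in place of 122 for Erbb4 in susceptible against control. Assignment by gene bounds gave the same counts. Widening bounds by 10 kb or searching within 10 kb of a position could not find a segment. The nearest segment of any list lay 99.7 kb from Nrg3 and 1870 kb from Erbb4. The share of Up over the table, used as background, was 14.8% with chromosome 1 in susceptible against control, beside 40.4% without it; in the other tables it differed by less. With gene-named positions alone it was 37.6% in susceptible against control (beside 40.4%), 36.7% in resilient against control (beside 38.3%) and 49.8% in resilient against susceptible (beside 48.8%). The rank of Nrg3 by density depended on the genes it was set against: in resilient against susceptible it lay above 55.1% of all named genes and above 33.7% of those of at least 100 kb. No paired analysis was possible because each group had 1 sample per target and the tables hold no value per library. No replicate could be left out for the same reason. Depth was unknown, so an unlisted position may be unchanged or too thinly covered.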
